A study of Homo sapiens with 4 samples.

Results

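H929, a long-established line of human multiple myeloma cells, was profiled for acetylated histone H3 by ChIP-seq (sequencing of DNA from precipitated chromatin). Described here are the promoter peaks that lay at the same place in both libraries. They were chosen by position in the measured peak lists: a wild-type peak that the authors' annotation placed at a promoter (within 3 kb of a transcription start site, TSS) was a member if it overlapped an overexpression promoter peak by at least 1 bp. This held for 985 of the 1739 wild-type promoter peaks (56.6%), out of 4828 wild-type peaks in all. Their partners were 982 of the 8300 overexpression promoter peaks (11.8%), out of 9780 overexpression peaks in all. Both shares follow from the rule that chose the pairs and carry no finding of their own. Each wild-type peak was set beside the overexpression peak it overlapped most, which gave 985 pairs. In 34 pairs the wild-type peak overlapped a second overexpression promoter peak as well, and 37 overexpression peaks each overlapped 2 wild-type peaks.

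Per the labels and the series title, one group of H929 cells overexpressed AIMP1 and the other was wild type. The labels name no vector, clone or drug treatment. Cells of both groups were fixed with 1% formaldehyde for 10 minutes, their sheared chromatin was pulled down with an acetyl-H3 antibody, and fragments of 100 to 300 bp were selected. Each group had 1 acetyl-H3 library and 1 input library. The inputs were not analysed here. With 1 library per group no difference between the groups could be tested, so every value below describes these libraries. Intervals in parentheses are exact 95% binomial intervals for shares and exact order-statistic intervals for medians, and cover only the spread over peaks.

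AIMP1 is a non-enzymatic scaffold subunit of the multi-tRNA synthetase complex. Acetylation of histone H3 tails weakens their contact with DNA and is read by bromodomain proteins, and it marks active promoters. At such promoters the DNA around the TSS is typically poor in nucleosomes, and the acetylated nucleosomes sit on either side, with a well-placed one just downstream of the start. A peak list of this mark at an active gene is therefore often strongest beside the TSS rather than on it.

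The promoter sequences of AIMP1 and of the 5 protein-coding genes with the highest wild-type fold enrichment in a pair given to 1 gene are shown, to set beside what each peak covered there. Each runs from 250 bases before to 50 bases after the RefSeq start (GRCh38.p14), 5′ to 3′ along the gene. Capitals mark matches on either strand to the motifs searched. The GC box was searched as GGGCGG. The CCAAT box was searched by the letters of its name. The TATA box was searched as TATAAA. The ETS site was searched as CCGGAAG. The element bound by ZBTB33 and BANP was searched as TCTCGCGAG. The ETS site and the other motifs searched (a CRE, an E box, NRF1 and YY1 letters) had no match in these windows.
AIMP1 (chr4:106315294-106315593, plus strand): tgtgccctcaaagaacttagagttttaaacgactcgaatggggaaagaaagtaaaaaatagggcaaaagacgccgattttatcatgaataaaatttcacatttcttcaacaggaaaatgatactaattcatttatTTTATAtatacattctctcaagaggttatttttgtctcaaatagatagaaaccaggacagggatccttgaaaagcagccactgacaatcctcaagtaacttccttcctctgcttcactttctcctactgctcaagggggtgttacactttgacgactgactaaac
TFEB (chr6:41735559-41735858, minus strand): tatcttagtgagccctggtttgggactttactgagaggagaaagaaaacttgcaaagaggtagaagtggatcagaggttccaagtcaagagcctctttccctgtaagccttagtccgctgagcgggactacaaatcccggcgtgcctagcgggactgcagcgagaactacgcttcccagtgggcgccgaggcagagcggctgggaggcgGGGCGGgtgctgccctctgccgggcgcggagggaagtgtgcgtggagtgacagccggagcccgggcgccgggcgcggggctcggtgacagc
CHTOP (chr1:153633816-153634115, plus strand): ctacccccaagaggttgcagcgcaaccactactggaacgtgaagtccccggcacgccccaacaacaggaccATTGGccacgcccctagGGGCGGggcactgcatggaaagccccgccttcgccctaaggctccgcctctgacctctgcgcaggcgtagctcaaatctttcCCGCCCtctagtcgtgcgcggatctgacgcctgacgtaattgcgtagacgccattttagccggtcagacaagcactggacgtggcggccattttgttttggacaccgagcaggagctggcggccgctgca
LTA4H (chr12:96035538-96035837, minus strand): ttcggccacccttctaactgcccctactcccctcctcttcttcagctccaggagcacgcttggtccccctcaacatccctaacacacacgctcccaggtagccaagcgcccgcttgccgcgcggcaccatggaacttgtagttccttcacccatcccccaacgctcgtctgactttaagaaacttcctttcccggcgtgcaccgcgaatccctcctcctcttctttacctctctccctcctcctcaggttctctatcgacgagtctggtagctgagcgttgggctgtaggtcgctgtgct
PHF23 (chr17:7239408-7239707, minus strand): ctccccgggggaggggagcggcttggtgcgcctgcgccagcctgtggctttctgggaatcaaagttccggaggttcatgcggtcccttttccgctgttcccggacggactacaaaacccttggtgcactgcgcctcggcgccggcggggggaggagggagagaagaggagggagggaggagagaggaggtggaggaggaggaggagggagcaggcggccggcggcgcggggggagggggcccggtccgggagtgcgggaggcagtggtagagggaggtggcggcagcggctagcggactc
TGOLN2 (chr2:85327940-85328239, minus strand): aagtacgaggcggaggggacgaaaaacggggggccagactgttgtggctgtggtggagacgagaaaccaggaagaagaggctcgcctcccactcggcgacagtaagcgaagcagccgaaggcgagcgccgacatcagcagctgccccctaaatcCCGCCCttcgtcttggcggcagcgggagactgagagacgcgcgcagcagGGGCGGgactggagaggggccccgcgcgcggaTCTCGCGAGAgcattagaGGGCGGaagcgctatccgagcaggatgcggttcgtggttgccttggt

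The windows differed in what the peaks covered. At CHTOP, PHF23 and TGOLN2 both peaks covered all 300 bases. At TFEB the overexpression peak covered 182 bases and the wild-type peak 300, and at LTA4H the overexpression peak covered 134 and the wild-type peak 300. At AIMP1 the overexpression peak covered 300 bases and the wild-type peak 0, since it lay further into the gene. The TGOLN2 window held 3 GC boxes and a TCTCGCGAG element read on both strands, and the CHTOP window held 2 GC boxes and 1 CCAAT box. TFEB had 1 GC box and AIMP1 1 TATA box, on its other strand, in a window of 36.7% GC. No searched motif was found in the LTA4H and PHF23 windows. Positions of peaks below are relative to the TSS that the authors gave the overexpression peak, which is not always the RefSeq start: it lay 548 bp downstream of it at TFEB, at the same base at AIMP1, and upstream at PHF23 (-49 bp), LTA4H (-74 bp), CHTOP (-84 bp) and TGOLN2 (-307 bp).

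At the AIMP1 promoter the overexpression peak (chr4:106315281-106317339) was 2059 bp wide with a fold enrichment of 6.94, and the wild-type peak (chr4:106316056-106316552) was 497 bp wide with a fold of 5.08. The wild-type peak lay wholly inside the overexpression peak and their centres were 6 bp apart. The overexpression peak was assigned to a transcript that starts at the RefSeq start, and the wild-type peak to a transcript that starts 963 bp downstream of it. Measured from the overexpression peak's TSS, the summits lay at +853 bp in overexpression cells and +703 bp in wild-type cells. Fold enrichment and p were computed by the authors and rank peaks within 1 list only, so they give no direction between the groups.

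Across the pairs the overexpression peak was the wider one almost everywhere. Its median width was 2103 bp (2044 to 2172), against 1059 bp (1037 to 1100) for the wild-type peak. The overexpression peak was wider in 908 pairs (92.2%), at least 2 times as wide in 472 (47.9%) and at least 4 times as wide in 59 (5.99%). The median ratio of overexpression to wild-type width was 1.95 (1.89 to 2.03). Unpaired promoter peaks were narrower in each list, with medians of 1631.5 bp in the overexpression list and 789.5 bp in the wild-type list. Wide peaks overlap more easily, and the share of peaks that were paired was 6.78% in the narrowest and 19.5% in the widest quartile of overexpression promoter peaks, and 35.6% in the narrowest and 74.0% in the widest quartile of wild-type ones. The widths of the pairs are therefore tied to the rule and are given as a description.

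The widths and folds of partners were loosely tied at most. Across the 985 pairs, all from the same libraries, Spearman's rho was 0.405 for the widths and -0.0755 for the folds. The median fold was 7.89 in paired and 7.58 in unpaired overexpression promoter peaks, and 4.27 in paired and 4.57 in unpaired wild-type ones. An authors' p of at most 1e-05 was found for 825 of the overexpression peaks of the pairs (83.8%) and 72.0% of the unpaired ones. It was found for 215 of the wild-type peaks of the pairs (21.8%) and 11.9% of the unpaired ones.

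**Figure D1:**
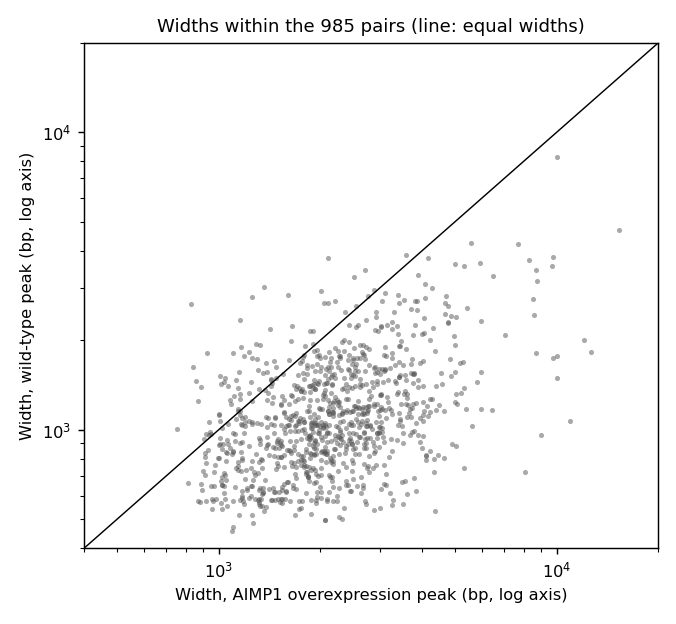
Each point is 1 of the 985 pairs, with the width of the AIMP1 overexpression peak on the horizontal axis and of the wild-type peak on the vertical axis (bp, both log axes). The line marks equal widths, and 908 points lie below it, where the overexpression peak is wider.

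The extra width was unequal on the sides of the gene. In 463 pairs (47.0%) the wild-type peak lay inside the overexpression peak, and in 13 (1.32%) the overexpression peak lay inside the wild-type peak. In the remaining pairs the peaks were staggered: the overexpression peak was shifted downstream, in the direction of transcription, in 357 (36.2%) and upstream in 152 (15.4%). The overexpression peak reached beyond the wild-type peak on the downstream side in 820 pairs (83.2%) and on the upstream side in 615 (62.4%). Over all pairs, with a shortfall counted as negative, the median reach was 706 bp (650 to 778) downstream and 224 bp (173 to 271) upstream. The overexpression centre lay downstream of the wild-type centre in 644 pairs (65.4%), by a median of 240.5 bp over all pairs. Regardless of direction the centres were a median of 513.5 bp apart (480.5 to 535), within 250 bp in 259 pairs (26.3%) and over 1000 bp apart in 169 (17.2%).

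The highest points of the peaks rarely coincided even though the peaks overlapped. Summits were within 100 bp of each other in 94 pairs (9.54%) and over 500 bp apart in 498 (50.6%). Measured from the TSS of the overexpression peak's transcript, the median summit lay at +233 bp (215 to 252) in overexpression cells and at -27 bp (-62 to 7) in wild-type cells. In the first 500 bp downstream of the TSS were 503 overexpression summits (51.1%, 47.9 to 54.2) and 259 wild-type summits (26.3%, 23.6 to 29.2). In the 250 bp upstream of the TSS the order was the other way, with 63 overexpression summits (6.40%, 4.95 to 8.11) and 219 wild-type summits (22.2%, 19.7 to 24.96). These windows were chosen after the positions were seen.

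In steps of 100 bp, the overexpression summits dipped at the TSS and were more numerous on each side of it. They numbered 37 between 300 and 200 bp upstream, 20 in the 100 bp just upstream of the TSS, 45 in the 100 bp just downstream and 163 between 200 and 300 bp downstream. The wild-type summits had a single crest at the TSS: 72, 90, 91 and 44 in the same 4 steps. The crest of the wild-type summits thus stood where the overexpression summits had a trough.

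**Figure D2:**
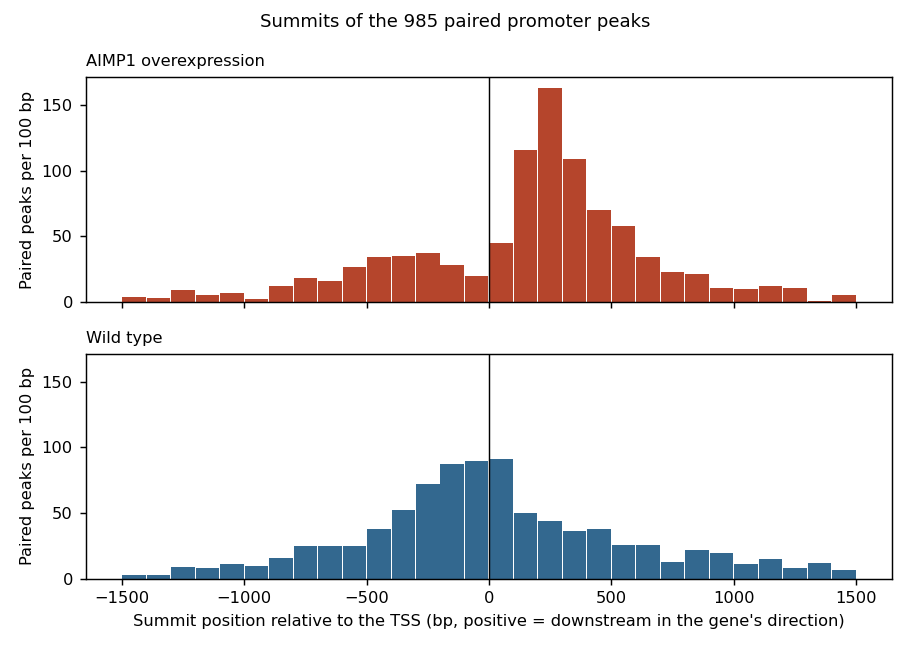
Number of pairs per 100 bp by the position of the summit relative to the TSS of the overexpression peak's transcript (bp, positive is downstream), for AIMP1 overexpression peaks (top) and wild-type peaks (bottom). The overexpression counts reach 163 between 200 and 300 bp downstream and dip to 20 just upstream of the TSS, where the wild-type counts are at 90.

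The same measure was taken in the unpaired promoter peaks. Of the 7318 unpaired overexpression promoter peaks, 50.5% had the summit in the first 500 bp downstream and 7.26% in the 250 bp upstream of their own TSS, close to the shares in the pairs. Of the 754 unpaired wild-type promoter peaks, 15.9% had it in the first 500 bp downstream and 11.8% in the 250 bp upstream. The wild-type peaks of the pairs were thus nearer to the TSS than the unpaired ones, and covered it more often (80.1% against 32.9%). Most overexpression promoter peaks covered their TSS: 95.0% in the pairs and 88.7% of the unpaired ones. The rule chose wild-type peaks by overlap with overexpression promoter peaks, so the place of the wild-type peaks is tied to it. Overlap did not require covering the TSS: in 165 pairs only the overexpression peak covered its own. How far the rule accounts for the difference between paired and unpaired wild-type peaks was not tested.

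The displacement followed the direction of the gene and not of the chromosome. In 508 pairs on genes of the plus strand, the median summit was 250 bp towards higher coordinates from the TSS in overexpression cells and 43.5 bp towards lower coordinates in wild-type cells. In 477 pairs on genes of the minus strand, the overexpression summits were a median of 213 bp towards lower coordinates and the wild-type summits 23 bp towards higher ones. The pattern was also present in the 630 pairs whose peaks were given to the same transcript and both covered its TSS. Of these, 56.7% of overexpression and 36.0% of wild-type summits lay in the first 500 bp downstream. In the 250 bp upstream lay 6.19% of the overexpression and 31.4% of the wild-type summits.

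The pattern was also read by peak width. In the narrowest quartile of pairs by overexpression width (755 to 1556 bp), 66.8% of overexpression and 35.6% of wild-type summits lay in the first 500 bp downstream, and 6.48% of overexpression and 27.9% of wild-type summits in the 250 bp upstream. In the widest quartile (2884 to 15302 bp) the shares were 30.9% of overexpression and 22.0% of wild-type summits downstream, and 4.07% of overexpression and 13.4% of wild-type summits upstream. The overexpression share in the 250 bp upstream was the lower one in each of the 4 quartiles.

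Where RefSeq has another gene starting within 1 kb upstream on the opposite strand, the overexpression summits were more often upstream. In 175 such pairs 29.7% of the overexpression summits (23.1 to 37.1) lay 250 to 1000 bp upstream, against 12.9% (10.3 to 15.8) in 591 pairs without such a neighbour. Of the wild-type summits, 21.1% lay there in pairs with such a neighbour and 22.2% in pairs without. In the first 500 bp downstream the libraries were closer in pairs with such a neighbour. There, 41.1% (33.8 to 48.8) of overexpression and 34.3% (27.3 to 41.8) of wild-type summits lay downstream. In pairs without, the shares were 54.7% of overexpression and 25.2% of wild-type summits. Where such a neighbour exists, the upstream side of one gene is by annotation the transcribed side of the other. Whether this bears on the summits was not tested.

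Most paired peaks covered a TSS, and the overexpression peak did so more often. It covered its TSS in 936 pairs (95.0%) and the wild-type peak in 789 (80.1%). Both did in 771 pairs, only the overexpression peak in 165, only the wild-type peak in 18 and neither in 31. Counted at the overexpression peak's TSS in place of its own, the wild-type peak covered it in 68.3% of pairs. At 500 bp downstream of the TSS, 91.2% of overexpression and 42.3% of wild-type peaks still covered the position. At 500 bp upstream the shares were closer, 61.8% of overexpression and 52.2% of wild-type peaks. The difference in extent was thus larger over the start of the transcribed region than upstream of it.

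**Figure D3:**
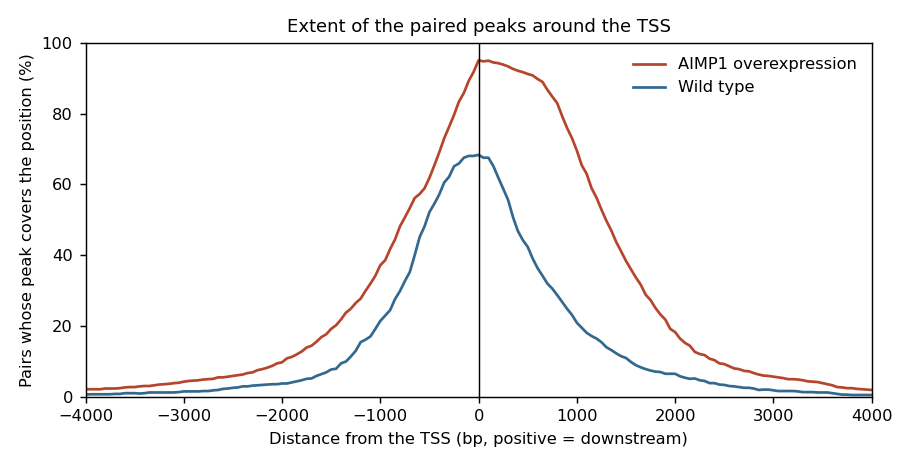
Share of the 985 pairs (percent) whose peak covers each position relative to the TSS of the overexpression peak's transcript (bp, positive is downstream), for AIMP1 overexpression (red) and wild-type (blue) peaks. At 0 bp the shares are 95.0% for overexpression and 68.3% for wild type, and at 1000 bp downstream 69.5% and 20.9%.

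Among the 10 pairs with the highest wild-type fold, different arrangements stood side by side. TFEB, the transcription factor of lysosome genes, had the highest wild-type fold (8.56, chr6:41735355-41736155), beside an overexpression peak of fold 6.81 that was shifted downstream. Its summits lay at +26 bp in overexpression cells and -753 bp in wild-type cells. CHTOP, a nuclear protein of mRNA export, had folds of 14.06 in overexpression and 8.51 in wild-type cells with summits at +302 and +346 bp. The trans-Golgi protein gene TGOLN2 had folds of 11.22 in overexpression and 7.41 in wild-type cells, and the most alike pair of peaks of the 10, with widths of 1105 bp in overexpression and 975 bp in wild-type cells and centres 16 bp apart.

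LTA4H, an enzyme of leukotriene synthesis, had peaks of about equal width (1010 bp in overexpression, 1071 bp in wild-type cells) that overlapped by 294 bp. Its summits were on opposite sides of the TSS, at +423 bp in overexpression and -225 bp in wild-type cells. PHF23 had them at +259 bp in overexpression and -229 bp in wild-type cells. INO80E, a subunit of the INO80 chromatin remodelling complex, had them at +620 bp in overexpression and -613 bp in wild-type cells. CNOT10 of the CCR4-NOT deadenylase complex had summits at +397 bp in overexpression and -22 bp in wild-type cells, and LOC100630923 at +405 and -209 bp. The order was the reverse at RNU4ATAC, a small nuclear RNA of the minor spliceosome, with summits at -148 bp in overexpression and +328 bp in wild-type cells.

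**Figure D4:**
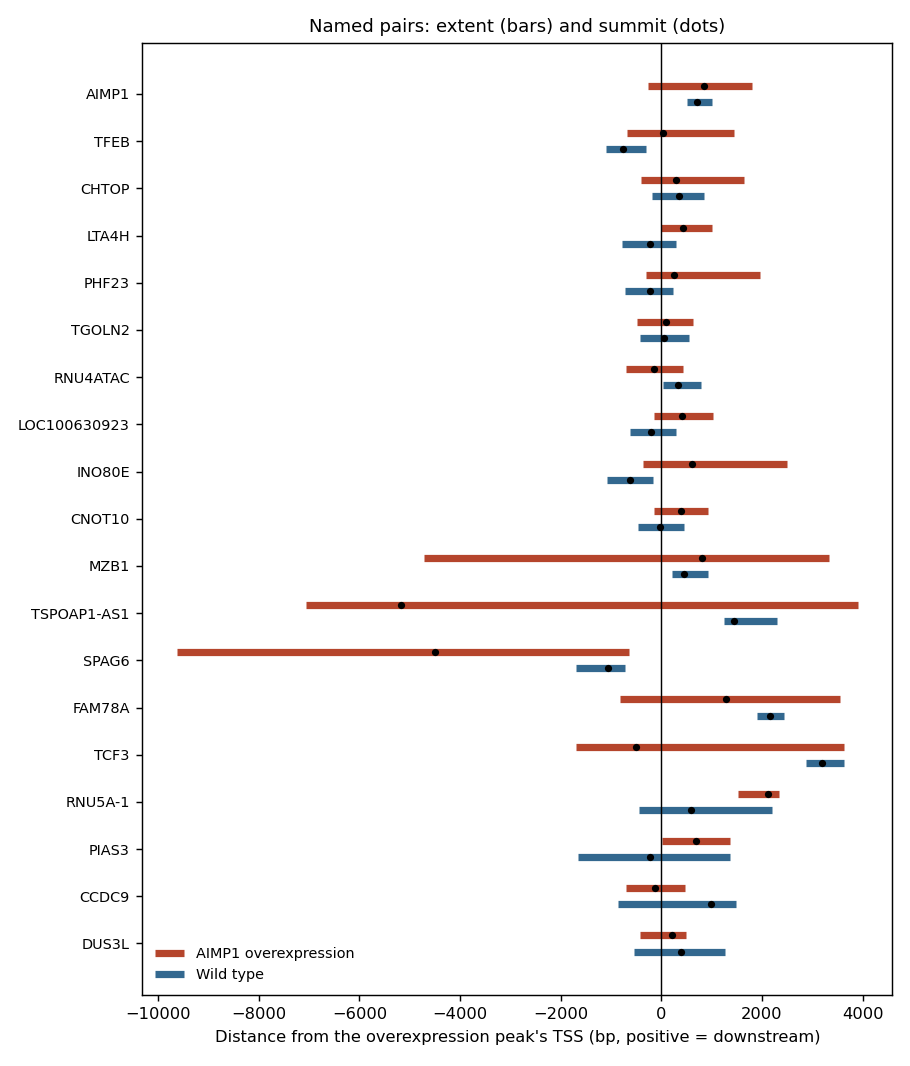
Extent (bars) and summit (dots) of named pairs given to the same gene relative to the TSS of the overexpression peak's transcript (bp, positive is downstream), with the AIMP1 overexpression peak above the wild-type peak for each gene. At TFEB, LTA4H, PHF23 and INO80E the overexpression bar lies further downstream, and at MZB1 and SPAG6 it is over 9 times as long as the wild-type bar.

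The pairs with the most unequal widths include a gene of antibody-secreting cells. MZB1, an endoplasmic reticulum protein needed for antibody secretion, had the largest ratio, 11.2, from an overexpression peak of 8053 bp (chr5:139386754-139394806) and a wild-type peak of 720 bp (chr5:139389155-139389874). TSPOAP1-AS1, an antisense RNA gene, followed with 10979 bp in overexpression and 1066 bp in wild-type cells. SPAG6, a component of the axoneme of cilia and flagella, had 8983 bp in overexpression and 962 bp in wild-type cells, and FAM78A 4379 and 534 bp. Neither SPAG6 peak covered the TSS: their distances to it were -651 bp in overexpression and -726 bp in wild-type cells. The SPAG6 overexpression summit lay at -4494 bp. TCF3, which encodes the E2A proteins of early B cells, had 1 overexpression peak of 5329 bp and fold 21.48, the highest of the pairs, over 2 wild-type peaks of 741 and 1377 bp. SPAG6 (21.44), the putative exonuclease gene REXO1 (19.39) and the histone methyltransferase gene KMT5B (18.99) followed in overexpression fold. The wild-type peaks of these genes were weakly called, apart from TSPOAP1-AS1 with an authors' p of 1e-05. At the others the authors' p ran from 0.000236 (SPAG6) to 0.000995 (KMT5B), where the list's limit was 0.001. With wild-type p of at most 1e-05 the median ratio over pairs was 1.49.

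At the other end, RNU5A-1, a small nuclear RNA gene of the spliceosome, had an overexpression peak of 826 bp and a wild-type peak of 2641 bp, a ratio of 0.313. The dynactin gene ACTR1A, whose partner was given to its neighbour SUFU, had 1256 bp in overexpression and 2795 bp in wild-type cells. PIAS3, a SUMO ligase, had 1357 bp in overexpression and 3017 bp in wild-type cells. DUS3L, a tRNA dihydrouridine synthase, had 921 bp in overexpression and 1808 bp in wild-type cells. At CCDC9 and DUS3L the overexpression peak lay inside the wild-type one. The widest wild-type peaks of the pairs were wide in both lists: KANSL1, a subunit of an acetyltransferase complex, had 10019 bp in overexpression and 8275 bp in wild-type cells. The nuclear long noncoding RNA NEAT1 had 15302 bp in overexpression and 4693 bp in wild-type cells. MCL1, which protects plasma cells from apoptosis, had 5579 bp in overexpression and 4236 bp in wild-type cells. WDR74 had 7686 bp in overexpression and 4202 bp in wild-type cells, and the actin-binding protein gene TWF1, an exception in order, 3571 bp in overexpression and 3854 bp in wild-type cells.

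In the 5 pairs with the largest centre offsets the overexpression peaks were 8983 to 12655 bp wide and the wild-type peaks 962 to 2009 bp. The sorting nexin gene SNX18 had centres 6593.5 bp apart, with the overexpression peak downstream. At MALAT1, a nuclear long noncoding RNA gene, the wild-type peak lay 4774.5 bp downstream of the centre of an overexpression peak of 12018 bp.

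At the threshold of the rule, KDM5A, a histone demethylase gene, and KLF12 were members by an overlap of 5 bp, MISP3 and LOC100506100 by 9 bp and PHPT1 by 12 bp. Just outside it, the wild-type peak at HAUS5 missed the overexpression peak by 6 bp, that at MACROD1 by 33 bp, at LRTOMT by 41 bp, at AFTPH by 43 bp and at PHLPP1 by 47 bp. In 14 pairs the overlap was 50 bp or less. Of the 754 unpaired wild-type promoter peaks, 10 were within 100 bp of an overexpression promoter peak, 92 within 1 kb and 519 more than 10 kb away. None of the 754 overlapped an overexpression peak outside promoters.

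The paired peaks were given to the same gene in 918 pairs (93.2%, 91.4 to 94.7) and to the same transcript in 746 (75.7%). Different genes were given in 67 pairs, such as CFL1 to the overexpression and MUS81 to the wild-type peak. At the histone genes, 1 overexpression peak of 3791 bp given to HIST1H2BD overlapped wild-type peaks of 690 bp, given to HIST1H1E, and 1540 bp, given to HIST1H2BD. In all, 887 genes were given to both peaks of a pair, of which 805 were protein-coding. These were 4.01% of the 20056 protein-coding genes in RefSeq and 11.9% of the 6769 with an overexpression promoter peak. The shares of the gene lists below were read beside these values, and no test of a list was made.

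Genes of the translation machinery were present in small numbers. Of 11 members of the multi-tRNA synthetase complex 2 were in the pairs, AIMP1 and EPRS, the glutamyl-prolyl-tRNA synthetase, and of 12 other aminoacyl-tRNA synthetases 2, NARS and VARS. The EPRS peaks were 1465 bp wide in overexpression and 618 bp in wild-type cells, and their centres were 32.5 bp apart. Of 79 cytosolic ribosomal protein genes 13 were in the pairs, which is 16.5% of the list and 25.5% of its 51 genes with an overexpression promoter peak. The overexpression peak was wider in 13 of these 13, and in 92.2% of all pairs. The median ratio was 1.81 in the list, against 1.95 over all pairs. RPS27, with the highest wild-type fold of them, had folds of 5.76 in overexpression and 5.64 in wild-type cells and summits at +58 and -107 bp. RPL29 had folds of 10.23 in overexpression and 5.58 in wild-type cells, with summits at +456 and -109 bp. Of 44 translation factor genes 4 were in the pairs, EIF5B, EIF3G, EEF1G and EIF2B5, and of 77 mitochondrial ribosomal protein genes 6.

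Genes of chromatin and transcription were also counted. Of 40 histone methylation genes 7 were in the pairs (17.5% of the list and 18.9% of the 37 with an overexpression promoter peak), among them EZH2, the catalytic subunit of Polycomb complex PRC2, KDM4C and PRMT1. EZH2 had widths of 3413 bp in overexpression and 1140 bp in wild-type cells, both with the summit upstream, at -717 and -1027 bp. PRMT1, an arginine methyltransferase, had 1 overexpression peak of 1323 bp. That peak overlapped 2 wild-type peaks, of 893 and 1923 bp, and lay mostly on the wider one. Of 34 histone acetylation genes 3 were in the pairs, the acetyltransferase gene KAT5, the corepressor gene SIN3A and ANP32E. These were 12.5% of the 24 with an overexpression promoter peak, near the 11.9% of all protein-coding genes with one. The KAT5 peaks were 5014 bp wide in overexpression and 3609 bp in wild-type cells with summits at +310 and +105 bp. Of 67 genes of the RNA polymerases, TFIID and Mediator 5 were given to both peaks (13.9% of the 36 with an overexpression promoter peak). Of 58 splicing factor and hnRNP genes 7 were (15.2% of the 46 with one). In the 7 splicing pairs the overexpression peak was wider in 7, and it was wider in 92.2% of all pairs.

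Of 36 cell cycle genes 6 were in the pairs, and of 57 DNA replication and repair genes 6. The mitotic kinase gene AURKB had summits at +147 bp in overexpression and -102 bp in wild-type cells, and cyclin A2 (CCNA2) at +390 bp in overexpression and -12 bp in wild-type cells. The cyclin-dependent kinase gene CDK2 had the wild-type summit further downstream, at +401 bp in overexpression and +873 bp in wild-type cells. The transcription factor gene E2F1 had both downstream, at +1369 bp in overexpression and +353 bp in wild-type cells. In the 7 pairs of the cell cycle list, from 6 genes, the overexpression summit lay downstream of the TSS in 7 and the wild-type summit in 4. Over all 985 pairs 71.7% of overexpression and 47.7% of wild-type summits did. Counts in other lists were also small, and differences between lists were not tested. The numbers were 9 overexpression and 6 wild-type summits in 13 cytosolic ribosomal protein pairs. They were 4 and 4 in 6 heat shock and chaperone pairs, and 4 and 5 in 7 proteasome pairs. The proteasome pairs came from 6 genes, with the same overexpression peak at NFE2L1 counted with each of its wild-type peaks. XRCC5, a subunit of the Ku end-joining factor, had summits at +232 bp in overexpression and -353 bp in wild-type cells. The proteasome list had 6 of 39 genes, among them PSMD4, PSMC1 and NFE2L1, the transcription factor of proteasome genes. The heat shock and chaperone list had 6 of 51. HSPA8, the constitutive HSP70 chaperone, had the highest overexpression fold of these, 18.32, beside a wild-type fold of 4.89, and widths of 4574 bp in overexpression and 1424 bp in wild-type cells.

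Of 30 plasma cell and myeloma identity genes MZB1 and MCL1 were in the pairs, and of the 10 defining plasma cell markers MZB1 was. Of 29 genes of myeloma mutations and translocations MAF was, with widths of 1381 bp in overexpression and 1100 bp in wild-type cells. The NF-kB list had RELA, RELB and TRAF6 of 28 genes. RELB was an exception in width, with 855 bp in overexpression and 1454 bp in wild-type cells. The GRB2, RAS and MAPK list had the adaptor gene SHC1, the RAS GTPase-activating gene RASA1 and the phosphatase gene DUSP5 of 37 genes. The unfolded protein response list had HERPUD1 and CREB3L2 of 24, the respiratory chain list 3 of 70, the BCL2 family list MCL1 of 24, the mTOR list LAMTOR1 of 33 and the housekeeping list ALDOA, GAPDH and PPIA of 16. Lists of other cell types had TCF3 of 17 earlier B cell genes, GATA3 of 17 T and NK cell genes, and 0 of 15 monocyte, 0 of 7 erythroid and 0 of 7 neuronal genes.

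**Figure D5:**
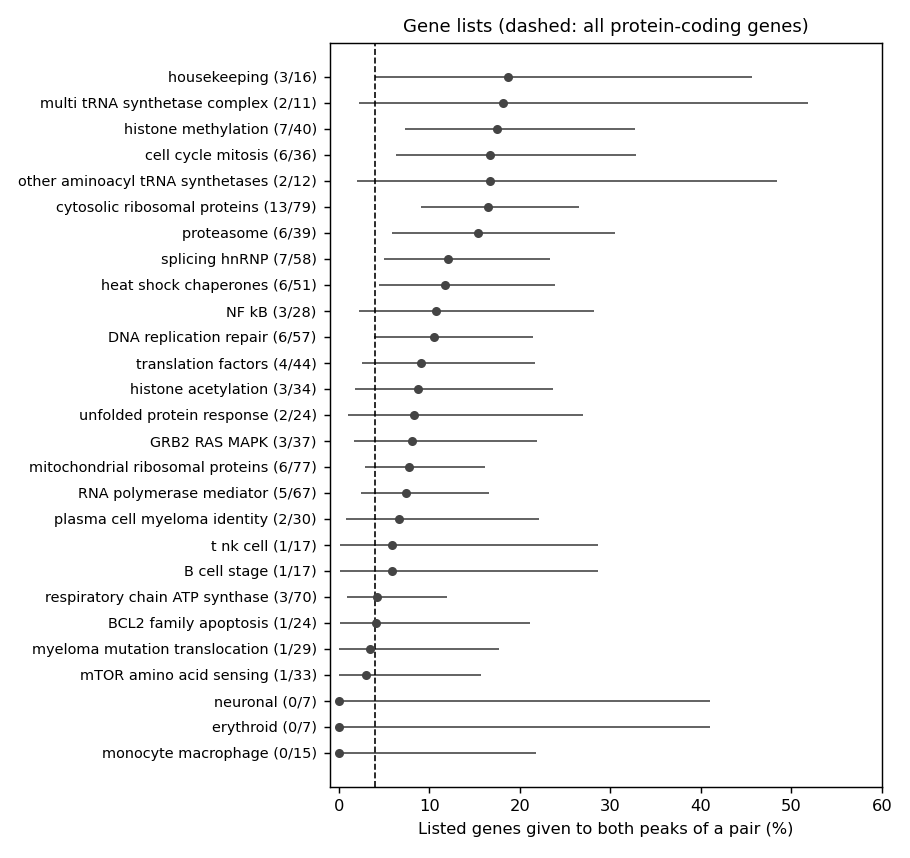
Share of each list's genes (percent) that were given to both peaks of a pair, with the number of genes in brackets and exact 95% binomial intervals as lines. The dashed line is the share of all protein-coding genes, 4.01%, and the cytosolic ribosomal protein list stands at 16.5%.

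The promoter sequences of the paired genes were set beside those of the other genes with an overexpression promoter peak. RefSeq sequence was at hand for 685 of the 805 paired protein-coding genes and for 4989 of 5923 genes with an overexpression promoter peak and no pair. The median GC content was 65.0% in the paired genes, 66.7% in the unpaired overexpression genes and 62.7% in 15843 promoters of all protein-coding genes. A GC box was present in 72.6% of the paired, 73.3% of the unpaired overexpression and 58.5% of all promoters. The ETS letters were present in 21.3% of the paired, 20.2% of the unpaired overexpression and 14.2% of all promoters. A TATA box was present in 5.11% of the paired, 4.95% of the unpaired overexpression and 9.63% of all promoters. The CCAAT box was present in 42.5% (38.7 to 46.3) of the paired promoters. It was present in 35.6% (34.2 to 36.9) of the unpaired overexpression promoters and 36.4% of all. Paired and unpaired overexpression promoters had 3.94% and 3.53% for the CRE, 9.93% and 11.2% for the E box, and 4.67% and 4.15% for NRF1. They had 1.61% and 1.76% for the ZBTB33 and BANP element, and 5.99% and 4.71% for YY1. Of genes with a wild-type promoter peak and no pair, 36.0% had a CCAAT box, 67.3% a GC box and 14.8% ETS letters. No motif was tested. A match is a stretch of letters and does not show that a factor binds.

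The pairs were spread over 23 chromosomes, unevenly. The share of overexpression promoter peaks with a wild-type partner was highest on chromosome 6 (17.2%, 13.7 to 21.3) and chromosome 5 (16.6%, 13.2 to 20.5). It was lowest on chromosome X, where 1 of 135 was paired (0.741%, 0.0188 to 4.06), and on chromosome 18, with 5 of 111 (4.50%, 1.48 to 10.2). Chromosome X had 3 wild-type promoter peaks in all and chromosome 18 had 9. Counted over wild-type promoter peaks the order was different: 55.6% were paired on chromosome 18, 59.2% on chromosome 5 and 66.7% on chromosome 6. This share was 56.6% over all chromosomes. It was highest on chromosome 19 (71.3%) and, apart from chromosome X, lowest on chromosome 1 (42.6%).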

How the data were processed

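Peak lists of 1 acetyl-H3 ChIP-seq library per group were used, and the input libraries were not analysed here. Tools listed in the submitters' processing notes are cutadapt, Trimmomatic, FastQC and Bowtie2 without version or role. Which peak caller, threshold and genome build were used, and whether the inputs entered, is not given in the sources used here. Per the file headers, each deposited peak has a start, an end, a width, a summit, a fold enrichment (a ratio by the authors over a background that is not described), a p-value (the authors' own, at most 0.001 in each list), a class of place, and the gene and transcript of a TSS. The header does not describe the summit, which was read as bases from the peak's start, since it lay within the width for every peak. Coordinates are as deposited. The authors' TSS lay within 100 bp of the RefSeq start (GRCh38.p14) of the same gene in 62.3% of 766 pairs and within 1 kb in 85.0%. All 887 genes given to both peaks matched RefSeq. Read depth is unknown.

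Promoter peaks of both lists were paired by position with an overlap of at least 1 bp. Positions are relative to the TSS of the overexpression peak's transcript, in the gene's direction. The overlap step was tested on simulated data: it found 200 of 200 planted overlaps with the right length and called 0 of 200 adjacent peaks. Intervals of shares are Clopper-Pearson intervals. They cover counting error over peaks, not the spread between samples. No test between groups was possible with 1 library each. Motifs were searched on both strands in 300 bases of RefSeq sequence. The tools were numpy 2.4.6, pandas 2.3.3 and scipy 1.17.1 in Python 3.11.15, with matplotlib 3.10.9 for figures.

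The pairs, the 27 gene lists (959 names, all matched) and the motifs were chosen with earlier results of these data known. The rule for named genes took AIMP1, the 10 pairs with the highest wild-type fold, the 5 with the highest overexpression fold, the 5 largest and 5 smallest width ratios, the 5 largest centre offsets, the 5 widest wild-type peaks, the 5 smallest overlaps and 5 smallest gaps, the 5 overexpression peaks with most wild-type peaks, the 5 pairs given to different genes with the highest wild-type fold, and up to 4 genes of each list. From these, the text names some and gives the others in counts; 1 of the named pairs is not reported here. EZH2 and PRMT1 lie outside the first 4 of their lists and were named after their values were seen. Alternatives were other overlaps, promoters within 1 kb, other peak thresholds, lists of equal length and other ways of pairing.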

Additional observations from a re-analysis of the deposited data

How the results depend on the processing

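Of 147 alternative values 103 stayed within the interval of the value reported (for counts, within 1.5 times), 43 did not and 1 changed sign. The overexpression peak was the wider one by the median in 11 of 11 alternatives. In 12 of 12 the overexpression centres lay further downstream, more overexpression than wild-type summits were 0 to 500 bp downstream, and fewer were in the 250 bp upstream. Chosen after seeing the data were the TSS of the wild-type transcript, pairs of the same transcript, wild-type p of at most 1e-05 and the overexpression peak as the unit. No paired analysis was possible because there was only 1 library in each group. The read depth is unknown, and a peak that is not listed in one library may have been missed there. The cause of the moves below was not tested. The TSS of the wild-type transcript kept the same 985 pairs and changed only the point from which positions are counted.

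Overlap of at least 50% of both peaks left 346 pairs, with a median width ratio of 1.39, a centre offset of 293 bp, the same gene in 96.5%, TSS coverage of 92.8% in overexpression and 91.04% in wild-type peaks, and centres at 225.5 bp in overexpression and 59.5 bp in wild-type cells, where -38 bp was reported for wild type. There, 37.0% of wild-type summits were 0 to 500 bp downstream and 19.1% in the 250 bp upstream. Overlap of at least 50% of either peak gave 54.3% of wild-type peaks inside, an offset of 444.5 bp, TSS coverage of 82.6% in wild type and 29.2% of wild-type summits 0 to 500 bp downstream. Keeping only peaks with a fold of at least 6.11, the median of the pooled lists, left 43 pairs, with a ratio of 1.87, 30.2% of wild-type peaks inside, an offset of 546 bp, the same gene in 90.7%, overexpression TSS coverage of 93.0%, centres at 341.5 bp in overexpression and -85 bp in wild-type cells, and 9.30% of overexpression and 30.2% of wild-type summits in the 250 bp upstream, with 30.2% of wild-type summits 0 to 500 bp downstream. Lists of equal length gave a ratio of 2.22, 53.5% inside, an offset of 568.5 bp, overexpression TSS coverage of 97.5% and 46.5% of overexpression summits 0 to 500 bp downstream.

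Promoters within 1 kb gave TSS coverage of 96.8% in overexpression and 83.6% in wild-type peaks. Pairs of the same transcript gave a ratio of 1.87, an offset of 472 bp, wild-type TSS coverage of 85.9%, wild-type centres at -70.25 bp, and 31.4% of wild-type summits 0 to 500 bp downstream and 27.2% in the 250 bp upstream. Wild-type p of at most 1e-05 left 215 pairs, with a ratio of 1.49, 41.9% inside and wild-type TSS coverage of 91.2%. The TSS of the wild-type transcript put overexpression centres at 244.5 bp and 31.6% of wild-type summits 0 to 500 bp downstream.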

Other observations

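Genes of small structural RNAs and of histones were among the paired promoters. These families were chosen after their values were seen. Of 9 snRNA genes with an overexpression promoter peak, 5 were given to both peaks of a pair: RNU12, RNU4-2, RNU4ATAC, RNU5A-1 and RNU6-9. RNU4-2, which encodes an RNA of the major spliceosome, had widths of 3022 bp in overexpression and 2239 bp in wild-type cells and folds of 9.26 and 7.18. RNU12, of the minor spliceosome, had widths of 2844 bp in overexpression and 1446 bp in wild-type cells and folds of 10.6 and 3.41. Of 26 histone genes with an overexpression promoter peak 8 were given to both peaks. Of 162 genes with a symbol that begins with ZNF 14 were (8.64%), and of 116 solute carrier genes 10 (8.62%). The share was 11.9% of all protein-coding genes with an overexpression promoter peak. The ZNF symbols are mostly those of zinc finger genes, but the 14 include the antisense RNA gene ZNF436-AS1. Of 552 long noncoding RNA genes with an overexpression promoter peak 60 were given to both peaks, and of 107 miRNA genes 10.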
